A study of Arabidopsis thaliana with 14 samples.

Results

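The 3 genes described here, AT5G35940, AT1G52070 and AT1G52100, are listed as mannose-binding jacalin-related lectin genes of Arabidopsis thaliana. They were chosen by measured values of these arrays, as lectin genes with lower signal after brassinolide or in the mutant det2. Each locus matched 1 probe set, so 3 of the 22810 probe sets on the array are members, and all 3 were among the 17787 probe sets tested. The study set brassinosteroid supply against light, and hybridised total RNA of whole seedlings to 14 arrays in 7 groups of 2. Col seedlings, the wild type, spent 7 days in the dark, either without hormone or treated with brassinolide (BL, the most active brassinosteroid; some labels write BR), and both kinds were also sampled 2 h after a move to light. Seedlings of det2, labelled as brassinosteroid deficient, were 7 days old and grown in the dark or in the light, or 14 days old, grown in light and then kept for 8 h in the dark. No det2 group received BL and no wild-type group was grown in light throughout. The BL dose and duration are not given in the sources used here.

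Jacalin-related lectins are plant proteins built from jacalin domains, which bind sugars such as mannose. Arabidopsis has a large family of them, many in tandem clusters, and some are known partners of the beta-glucosidase PYK10 of endoplasmic reticulum (ER) bodies, which are compartments linked to defence and abundant in roots and seedlings. Brassinosteroids are steroid hormones that promote elongation of the seedling shoot in the dark, and DET2 encodes a reductase on the route to them. In the reference order of protein-coding genes on chromosome 1, AT1G52060 and AT1G52050 precede AT1G52070 directly, and 1 gene, AT1G52080, lies between AT1G52070 and AT1G52100. AT5G35940 lies on chromosome 5.

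Signal values are on the linear scale of the arrays and are compared only within a gene, because probe sets differ in brightness. In RNA of whole seedlings, fewer cells of a type and less RNA per cell cannot be told apart. AT5G35940 read 309.6 and 179.3 in dark-grown wild type and 16.2 and 19.4 with BL. After the move to light it read 92.3 and 251.4 without BL and 11.6 and 28.6 with BL. All 4 BL-treated arrays were thus below all 10 arrays without BL. In det2 the gene read 272.5 and 257.2 in the dark, 325.2 and 331.4 in light, and 626 and 513 after 8 h of darkness. The order of group means ran from det2 moved to darkness, light-grown det2 and dark-grown det2 through wild type in the dark and wild type in light to the BL groups. Replicates of dark-grown det2 and dark-grown wild type overlapped, as did those of wild type in the dark and in light, and the BL groups overlapped each other.

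AT1G52070 read 596.5 and 295.4 in dark-grown wild type and 54.6 and 94.3 with BL, and after the move to light 435 and 318.3 without BL and 9.9 and 57 with BL. Dark-grown det2 read 167.7 and 163.3, below each wild-type array without BL and above each array with BL. Light-grown det2 read 766.6 and 698.8, and det2 moved to darkness read 652.1 and 727.5. The det2 groups that had been in light therefore gave the highest group means of the gene and overlapped each other. Wild type in the dark and in light also overlapped, as did the BL groups.

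AT1G52100 had another order. It read 1678.6 and 1539.4 in dark-grown wild type, 890.1 and 1176.6 with BL, 4106.2 and 5015.5 after the move to light, and 3014.5 and 3358.8 after the move with BL. Each of these 4 groups was separate from the next in the order. In det2 the gene read 65.3 and 52.7 in the dark, 85.2 and 25 in light, and 170.1 and 22.6 after the shift to darkness. All 6 det2 arrays were far below all 8 wild-type arrays, and the 3 det2 groups overlapped each other. On the log2 scale the residual SD of this gene was 0.19 over the wild-type arrays and 1.07 over the det2 arrays, where the signal was low.

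**Figure D1:**
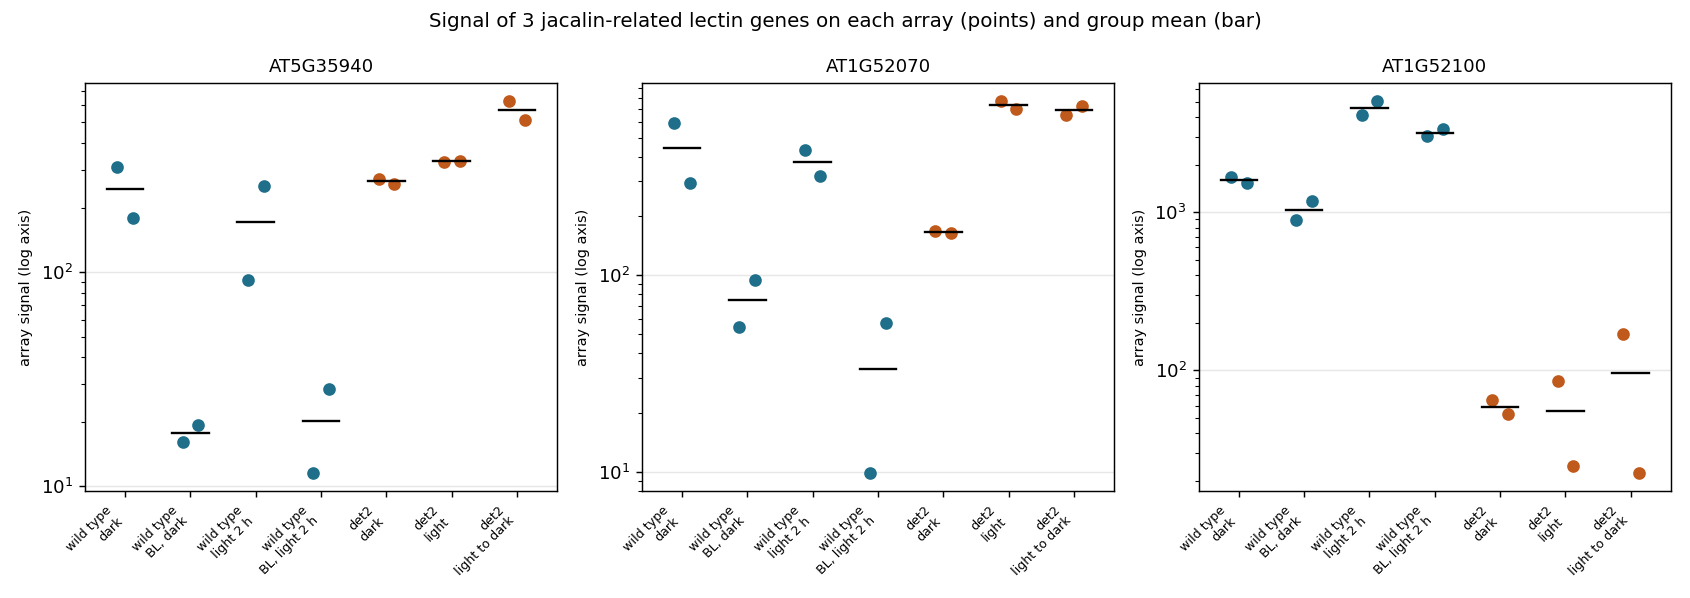
Array signal on a log axis for AT5G35940, AT1G52070 and AT1G52100 in the 7 groups; points are the 2 arrays of a group (wild type blue, det2 orange) and bars are group means. AT5G35940 and AT1G52070 were lowest in the BL groups, whereas AT1G52100 was lowest in all det2 groups, with means between 55.1 and 96.3.

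BL treatment and the det2 mutation in darkness are the contrasts on which the genes were chosen, so their values are given without a test. Changes are differences of log2(signal + 16), which understates the change of low signals, and errors are standard errors of the fit over all arrays. The residual SD over wild-type arrays was 0.59 for AT5G35940 and 0.69 for AT1G52070, against 0.12 and 0.084 over det2 arrays. Errors of the joint fit are therefore likely too small for the BL contrasts of these genes. For AT1G52100, at 0.19 over wild-type arrays, they are likely too large. With BL in the dark AT5G35940 was lower by 2.90 ± 0.38 on the log2 scale (7.47-fold), AT1G52070 differed by -2.31 ± 0.42 (4.95-fold) and AT1G52100 by -0.64 ± 0.55 (1.56-fold). With BL in seedlings moved to light the differences were -2.28 ± 0.38 for AT5G35940, -3.16 ± 0.42 for AT1G52070 and -0.51 ± 0.55 for AT1G52100. The size for the low readings was loosely fixed. For AT1G52070 in light the 8.93-fold difference became 5.32-fold when the BL-treated array that read 9.9 was left out, and 15-fold without the other BL-treated array. For AT5G35940 in light the 4.85-fold difference became 7.62-fold without replicate 1 of the seedlings without BL and 3.09-fold without their replicate 2. With a constant of 1 in place of 16 AT5G35940 differed 12.6-fold in the dark and 7.95-fold in light, and AT1G52070 14.8-fold in light. With a constant of 64 these values were 3.69-fold, 2.65-fold and 4.62-fold.

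In darkness det2 differed from wild type by -4.44 ± 0.55 for AT1G52100 (21.7-fold lower, or 13.6-fold with a constant of 64) and by -1.27 ± 0.42 for AT1G52070 (2.41-fold lower). AT5G35940 stood at 0.15 ± 0.38 with overlapping arrays, so of the 3 genes it was not lower in det2, and its sign turned to -0.21 without replicate 2 of dark-grown wild type. The det2 and wild-type arrays also differed in their distribution of signals. The 99th percentile lay between 8345 and 8987 on det2 arrays and between 6308 and 7439 on wild-type arrays. With quantile normalization, which gives all arrays the same distribution, the values were -4.56 for AT1G52100, -1.35 for AT1G52070 and 0.078 for AT5G35940. Labels give no batch, so genotype and any difference in handling cannot be told apart.

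Of the comparisons not used in the choice, growth of det2 in light was the only one in which a member passed the test over all arrays. AT1G52070 rose 4.12-fold in light-grown against dark-grown det2, by 2.04 ± 0.42 on the log2 scale (limma, adjusted p = 0.00201). With any of the 4 arrays left out the rise was between 1.98 and 2.11. This contrast shares the dark-grown det2 arrays with a contrast used in the choice. The choice favoured low readings on these arrays, so the rise and its p-value are no independent support. Of all probe sets tested, 19.5% were called higher and 17.7% lower here, so 1 of 3 members called higher is not far from the background. AT5G35940 was 0.29 ± 0.38 higher (adjusted p = 0.581) with separate arrays, and AT1G52100 differed by -0.21 ± 0.55 (adjusted p = 0.792).

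The move to light for 2 h left AT5G35940 and AT1G52070 without a passing change, whereas AT1G52100 was higher on every array in light than on any array in the dark. In wild type without BL the difference was 1.49 ± 0.55 for AT1G52100, a 2.81-fold higher level in light (adjusted p = 0.0752, 95% interval 0.31 to 2.67). In BL-treated seedlings it was 1.62 ± 0.55, or 3.08-fold (adjusted p = 0.059, 95% interval 0.44 to 2.80). Neither passed over all arrays, where the variable det2 readings enter the spread, but both did when the replicate number was added as a block (adjusted p = 0.0462 without BL and 0.0349 with BL). With wild-type arrays alone the standard error was 0.20 and both passed (adjusted p = 0.00154 without BL and 0.00113 with BL). Over the 9 alternatives that kept all arrays of the compared groups, adjusted p lay between 0.000155 and 0.162 without BL and between 0.000103 and 0.134 with BL, past the threshold in 4 and 5 of them. Every array of both light contrasts was in a contrast used to choose the genes, so these p-values are no independent support.

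AT5G35940 stood at -0.57 ± 0.38 with light in wild type (adjusted p = 0.341) and at 0.055 ± 0.38 in BL-treated seedlings (adjusted p = 0.942). Its replicates went opposite ways without BL, at -1.59 within replicate 1 and 0.45 within replicate 2. Leaving out the second light array gave -1.22, which passed (adjusted p = 0.0365, against a range of 0.0365 to 0.919 over the arrays left out in turn). AT1G52070 stood at -0.17 ± 0.42 without BL (adjusted p = 0.83) and at -1.02 ± 0.42 with BL (adjusted p = 0.117). The latter passed at -1.77 when the second array of BL and light was left out (adjusted p = 0.00746, range 0.00746 to 0.708). Thus 0 of 3 members passed in either contrast, beside 10.1% of probe sets called higher and 9.76% lower with light in wild type, and 8.97% and 8.38% with light in BL-treated seedlings. At an unadjusted p under 0.05 AT1G52100 passed in both contrasts and AT1G52070 in the BL-treated seedlings. The share of all probe sets at that unadjusted level is not given, here or below, so such counts cannot be set against a background.

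The shift of light-grown det2 to 8 h of darkness shares no array with the contrasts used in the choice. The groups differ in age, 14 against 7 days, which cannot be told apart from darkness. AT5G35940 was higher on both shifted arrays than on both light-grown arrays, by 0.76 ± 0.38 or 1.69-fold, but did not pass over all arrays (adjusted p = 0.237, 95% interval -0.060 to 1.58). With det2 arrays alone, where the residual SD of the gene was 0.12, it passed (adjusted p = 0.00297). Over 9 alternatives adjusted p lay between 0.00297 and 0.343, past the threshold in 2. AT1G52070 stood at -0.086 ± 0.42 (adjusted p = 0.936) and AT1G52100 at 0.40 ± 0.55 (adjusted p = 0.728), and both overlapped. Of all probe sets, 5.98% were called higher and 6.4% lower, and 0 of 3 members were called. With 2 arrays against 2 an exact permutation test of a single gene cannot give a two-sided p below 0.333, so these calls rest on the fit across all probe sets.

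The wider family was described from a list of 49 loci, written from general knowledge with earlier results on the members known. Of these, 22 have a named probe set. The annotation used here calls 4 of them jacalin-related lectins (JAL22, JAL23, JAL33 and JAL34), 3 are the members, and the other 15 carry a locus identifier alone. With the members set aside 11 genes were tested, and 8 more lay under the filter on low signal, with readings between 0.9 and 120.7. A gene kept because it was high in some group had more room to differ, so the counts below describe the tested genes and support nothing about the family.

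With BL in the dark 6 of these 11 genes fell and 1 rose, beside 1.89% of all probe sets called lower and 1.53% higher, and the median was -0.90 against 0.047 over all probe sets. JAL22 fell from 5605 ± 392 to 1055 ± 210 signal units (SD, n = 2), by 2.40 ± 0.20 on the log2 scale (limma, adjusted p = 3.56e-05). JAL33 fell by 2.15 ± 0.14 (adjusted p = 7.22e-06). Both encode lectins known as members of the PYK10 complex. AT1G52060, next to AT1G52070 on the chromosome, fell by 2.38 ± 0.39 (adjusted p = 0.00544) and AT1G52050, the gene before it, by 1.87 ± 0.37 (adjusted p = 0.0139). JAL34 and AT2G25980 were the other genes that fell (-0.90 ± 0.13 and -1.93 ± 0.33), and AT1G33790 rose by 1.21 ± 0.21. These 3, and AT1G52000 below, fall outside the rule for named genes and were added after their values were seen. JAL22, JAL33 and JAL34 kept their calls without any of the 4 arrays. With the first BL array left out the count was 3, as AT1G52050, AT1G52060, AT2G25980 and AT1G33790 no longer passed (adjusted p = 0.151, 0.0696, 0.0807 and 0.0808). AT1G52050 was also lost without replicate 1 of the untreated seedlings (adjusted p = 0.0779).

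With BL in seedlings moved to light 5 of 11 fell and 1 rose, beside 2.08% of probe sets called lower and 2.17% higher, with a median of -1.05 against 0.080. JAL33 fell by 2.39 ± 0.14 (adjusted p = 1.94e-06), JAL22 by 2.23 ± 0.20 (adjusted p = 6.68e-05) and JAL34 by 1.05 ± 0.13 (adjusted p = 0.000762). AT1G52060 fell by 1.97 ± 0.39 and AT1G52050 by 1.89 ± 0.37, and AT1G33790 rose by 1.20 ± 0.21. These last 3 no longer passed without replicate 1 of the seedlings without BL (adjusted p = 0.121, 0.0681 and 0.0543), which left a count of 3. With the first BL array left out AT1G52060 and AT1G52050 were lost too (adjusted p = 0.0833 and 0.0723), and AT1G33790 without their replicate 2 (adjusted p = 0.0742). The fold of AT1G52060 ran from 2.58 to 5.97 over the BL-treated arrays left out in turn. AT2G25980, at -1.08 ± 0.33, did not pass (adjusted p = 0.0922, or 0.0324 when blocked by replicate number).

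In darkness 3 of 11 were higher in det2 than in wild type and 2 lower, beside 19.2% of all probe sets higher and 17.9% lower, shares close to the list's. AT1G52060 fell by 2.13 ± 0.39 (adjusted p = 0.00114), from 871 ± 100 to 186 ± 14.4 signal units (SD, n = 2), while AT1G52050, at -0.98 ± 0.37, did not pass (adjusted p = 0.0517, or 0.0337 when blocked by replicate number). AT1G19715 rose by 2.23 ± 0.27 (adjusted p = 6.21e-05), AT1G52000 by 1.75 ± 0.31 (adjusted p = 0.000952) and AT3G21380 by 1.46 ± 0.40 (adjusted p = 0.0134). JAL22 (0.044 ± 0.20) and JAL33 (-0.00075 ± 0.14) did not pass, and JAL34 fell by 0.37 ± 0.13 (adjusted p = 0.0362). JAL34 was lost without any of the 4 arrays (adjusted p from 0.0568 to 0.186), whereas quantile normalization gave -0.97 (adjusted p = 0.000195) and a count of 7 in place of 5. AT3G21380 was lost without either det2 array or without replicate 1 of wild type (adjusted p from 0.051 to 0.0747). The count was 3 without replicate 2 of dark-grown det2 and without replicate 1 of dark-grown wild type.

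Light-grown det2 differed from dark-grown det2 in 9 of these 11 genes, with 2 higher and 7 lower, beside 19.5% of all probe sets higher and 17.7% lower, and a median of -0.66 against 0.0064 over all probe sets. The 2 that rose were the chromosomal neighbours of AT1G52070, AT1G52060 by 1.74 ± 0.39 (adjusted p = 0.00375) and AT1G52050 by 1.29 ± 0.37 (adjusted p = 0.0144). AT3G21380 fell by 3.45 ± 0.40 (adjusted p = 3.13e-05), JAL22 by 2.01 ± 0.20 (adjusted p = 8.55e-06), AT1G52000 by 1.77 ± 0.31 and AT1G19715 by 1.02 ± 0.27. AT3G21380 stood at -2.53 with a constant of 64 and -4.05 with 1. AT1G52050 was lost without replicate 1 of dark-grown det2 (adjusted p = 0.097) or without either light-grown array (adjusted p = 0.0675 each). AT1G19715 was lost without replicate 2 of either group (adjusted p = 0.0818 and 0.0695), and JAL34, which fell by 0.44 ± 0.13, without replicate 1 of dark-grown or replicate 2 of light-grown det2 (adjusted p = 0.115 and 0.154).

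With light in wild type 1 of 11 rose, AT1G19715 (2.01-fold, adjusted p = 0.0191), and 1 fell, AT2G25980 (-1.03 ± 0.33, adjusted p = 0.0429), shares near the 10.1% and 9.76% of all probe sets. AT2G25980 was lost without any of the 4 arrays (adjusted p from 0.0647 to 0.19). AT1G19715 was lost without either dark array or without replicate 2 of the light arrays (adjusted p from 0.0552 to 0.119). With light in BL-treated seedlings 0 of 11 passed in the limma fit, beside 8.97% of all probe sets called higher and 8.38% lower. Of the 11, 2 had an unadjusted p under 0.05, a level at which the share of all probe sets is not given. After the shift of det2 to darkness 3 of 11 fell and 0 rose, beside 6.4% of all probe sets lower and 5.98% higher, with a median of 0.040 against 0.034. They were AT1G73040 (-2.21 ± 0.51, adjusted p = 0.0134), AT1G52000 (-2.19 ± 0.31, adjusted p = 0.000717) and JAL22 (-0.89 ± 0.20, adjusted p = 0.0111). The count was 1 without replicate 1 of either group, and AT1G73040 and JAL22 were each lost without 3 of the 4 arrays. The folds of AT1G52000 (2.95 to 7.11) and AT1G73040 (2.68 to 7.99) moved when either shifted array was left out. With a constant of 64 these genes stood at -1.48 and -1.41, and AT1G73040 at -2.87 with 1.

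**Figure D2:**
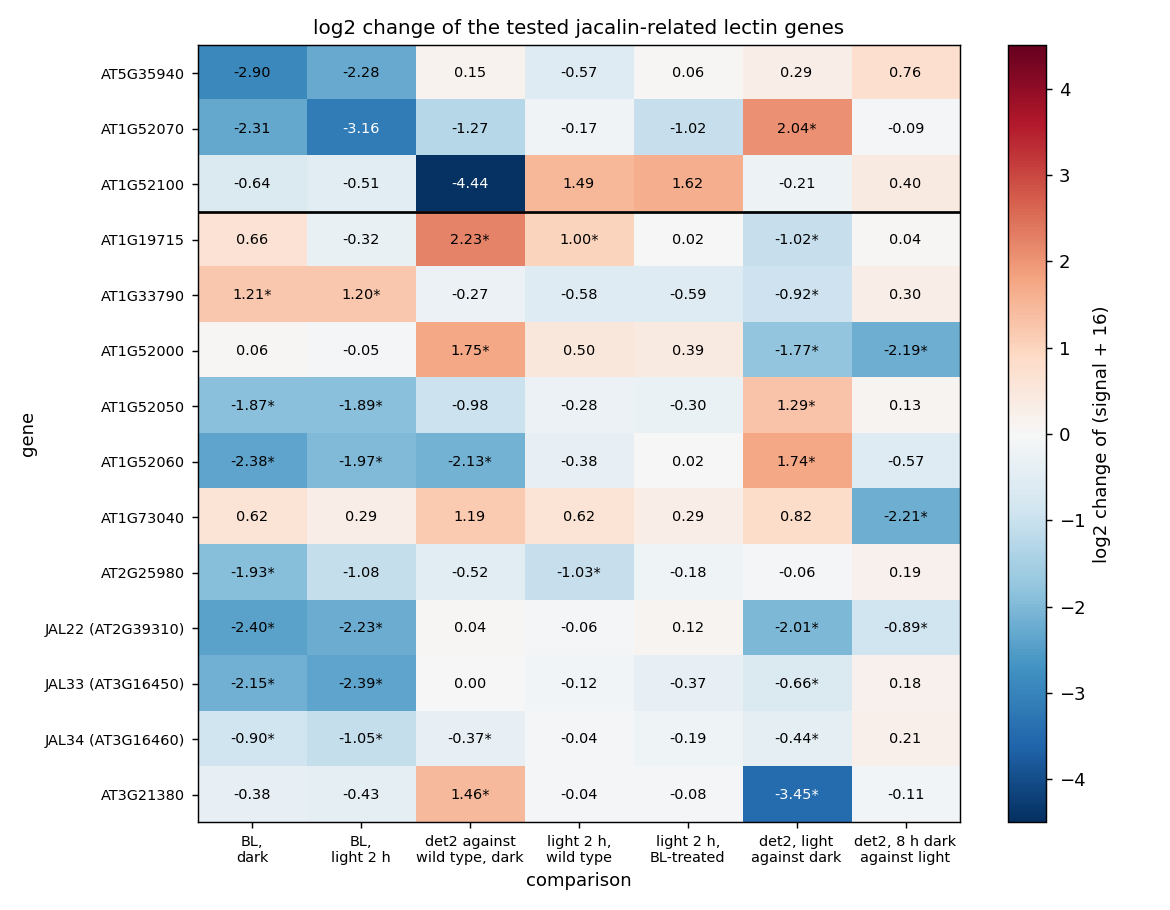
Change of log2(signal + 16) for the 3 members (above the line) and the 11 other tested genes of the jacalin-related lectin list in 7 comparisons; asterisks mark an adjusted p under 0.05, and members carry none in the first 3 columns because those contrasts chose them. AT1G52050 and AT1G52060 have the same signs as AT1G52070 with BL in both settings, in det2 against wild type and in light-grown against dark-grown det2. Signs differ for AT1G52060 with light in BL-treated seedlings (0.02, against -1.02) and for AT1G52050 after the shift to darkness (0.13, against -0.09). Of the 11 other genes only 4 lie above 0 with BL in the dark and 2 with BL in light.

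Root markers were set beside the members because seedlings hold roots and shoots in shares that can differ between groups. Of 27 root and root hair loci listed, 3 have a named probe set, namely AT3G49960 and the root hair expansins EXPA7 and EXPA18. None of the 3 was at 0 in any group. Their summed signal was 450.8 and 961.5 in dark-grown wild type, 98.9 and 388.2 with BL, 461.7 and 657.8 in light, and 95.4 and 235.2 in light with BL. In det2 it was 226.2 and 152.8 in the dark, 1033.2 and 1051.3 in light, and 805.6 and 853.9 after the shift to darkness. The sum adds probe sets of different brightness. With 3 of 27 loci, among them root hair expansins, it does not measure the share of root in a seedling. It was lower with BL and in dark-grown det2 than in the untreated wild-type groups, and highest in light-grown det2. EXPA7 and AT3G49960 were each highest there, but EXPA18 had a higher mean in dark-grown wild type (399) than in light-grown det2 (322). AT1G52070 was also highest in light-grown det2. AT5G35940 had its highest mean in det2 moved to darkness (570), and in dark-grown det2 it overlapped dark-grown wild type. AT1G52100 was highest in wild type moved to light (4561).

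In light-grown against dark-grown det2 all 3 root markers rose, AT3G49960 by 3.49 ± 0.45 (limma, adjusted p = 6.53e-05), EXPA7 by 2.46 ± 0.67 (adjusted p = 0.0117) and EXPA18 by 1.49 ± 0.51 (adjusted p = 0.0349). Of all probe sets, 19.5% were called higher in this comparison. With a constant of 64 the rise was 2.42 for AT3G49960 and 1.79 for EXPA7, and with 1 it was 4.31 for AT3G49960. EXPA7 was lost without replicate 1 of dark-grown det2 (adjusted p = 0.114, at 3.48-fold, against 8.73-fold without replicate 2) or replicate 2 of light-grown det2 (adjusted p = 0.0807). EXPA18 was lost without replicate 2 of dark-grown det2 (adjusted p = 0.293, at 1.81-fold, against 4.39-fold without replicate 1) or without either light-grown array. In dark-grown det2 against wild type, where 17.9% of all probe sets were called lower, AT3G49960 fell by 1.82 ± 0.45 (adjusted p = 0.00712) and EXPA18 by 1.68 ± 0.51 (adjusted p = 0.0208). EXPA7 there stood at -1.68 ± 0.67 (adjusted p = 0.0672, or 0.00569 when blocked by replicate number). The AT3G49960 value was -1.06 with a constant of 64 and -2.49 with 1. Both calls were lost without replicate 2 of either group, where EXPA18 was 2.06-fold and 2.13-fold lower, and at 4.99-fold and 4.84-fold without replicate 1. With BL in the dark, where 1.89% of all probe sets were called lower, the 3 markers lay between -1.62 and -1.45 and 0 passed. All 3 had an unadjusted limma p under 0.05, a level at which the share of all probe sets is not given. With BL in light, where 2.08% of all probe sets were called lower, AT3G49960 fell from 90.8 and 163.2 to 3.1 and 6.7, by 2.73 ± 0.45 (adjusted p = 0.00456). The size of this change depends on the constant, at -4.45 with 1 and -1.45 with 64, because the signal in BL lay under 16. EXPA7 there stood at -1.84 ± 0.67 (adjusted p = 0.169, or 0.0175 when blocked by replicate number). In the other 3 comparisons 0 passed. The part of root share in the values of AT1G52070, AT5G35940 and their neighbours was not tested.

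**Figure D3:**
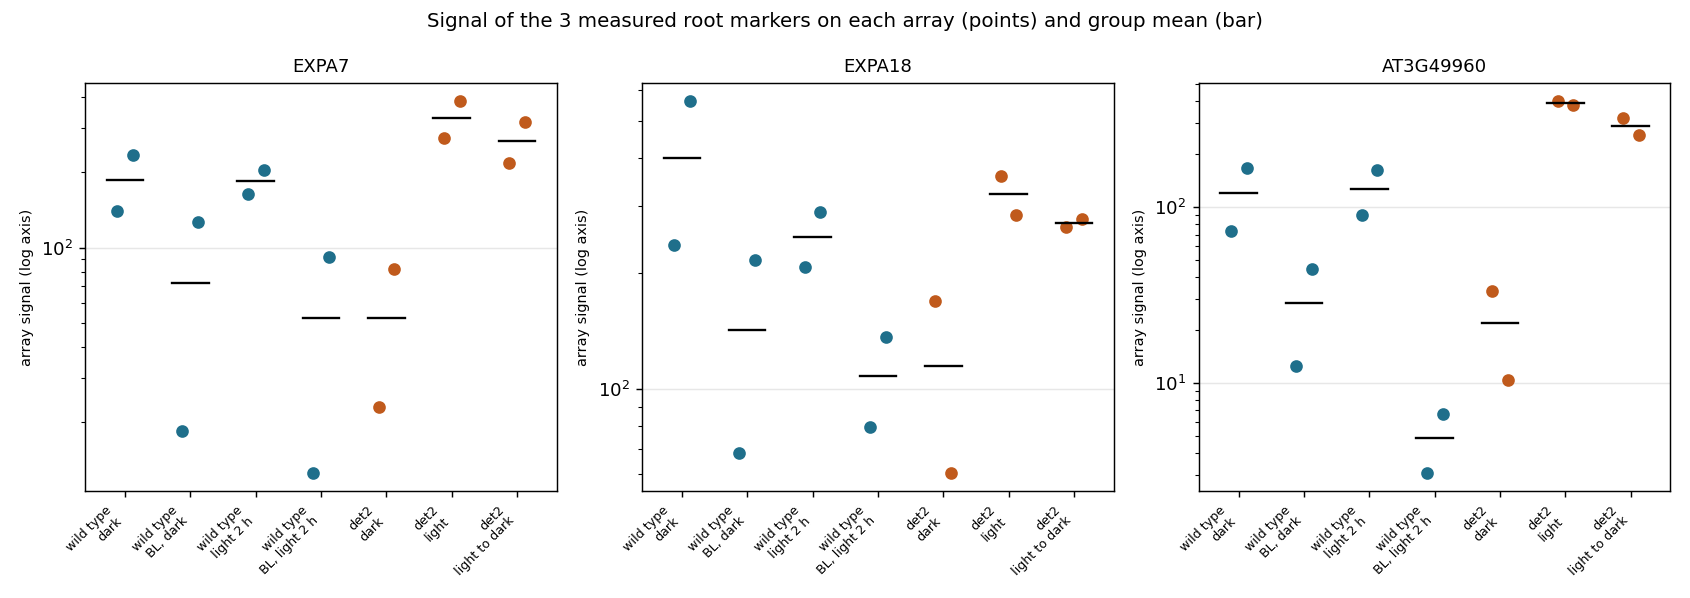
Array signal on a log axis for the root markers EXPA7, EXPA18 and AT3G49960 in the 7 groups; points are the 2 arrays of a group (wild type blue, det2 orange) and bars are group means. AT3G49960 was lowest with BL in light, with a mean of 4.9, and highest in light-grown det2, with a mean of 391.

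Of 10 ER body loci 3 have a named probe set. They are PYK10, which encodes the main beta-glucosidase of ER bodies, NAI2, a gene needed for ER body formation, and NAI1, which encodes a transcription factor for these genes. With BL in the dark NAI2 fell by 0.67 ± 0.14 (adjusted p = 0.0211) and NAI1 by 0.94 ± 0.23 (adjusted p = 0.0468), and PYK10, at -0.27 ± 0.12, did not pass. With BL in light NAI2 fell by 0.82 ± 0.14 (adjusted p = 0.0059). Of all probe sets, 1.89% were called lower with BL in the dark and 2.08% with BL in light. NAI1 was lost without any of the 4 arrays (adjusted p from 0.0513 to 0.284), and NAI2 in the dark without replicate 1 of the untreated or replicate 2 of the treated seedlings (adjusted p = 0.103 and 0.137). In light NAI2 was lost when the second BL array was left out (adjusted p = 0.0564), and with wild-type arrays alone it was lost in both settings (adjusted p = 0.151 in the dark and 0.0682 in light). In dark-grown det2 NAI2 fell by 0.79 ± 0.14 (adjusted p = 0.000924), beside 17.9% of all probe sets called lower and 19.2% higher. PYK10 was higher there by 0.69 ± 0.12 (adjusted p = 0.000865), but under quantile normalization stood at -0.31 (adjusted p = 0.0647). In light-grown against dark-grown det2 PYK10 fell by 0.49 ± 0.12 (adjusted p = 0.00682), a call lost under quantile normalization at -0.17 (adjusted p = 0.303), and without replicate 2 of dark-grown det2 or replicate 1 of light-grown det2 (adjusted p = 0.0684 and 0.0518). In the other 3 comparisons 0 of 3 passed, though NAI2 with light in BL-treated seedlings (-0.42, adjusted p = 0.0572) did when blocked by replicate number (adjusted p = 0.038).

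Among themselves the members did not all share a profile, as AT1G52100 stood apart. Over the 14 arrays log2 values of AT5G35940 and AT1G52070 correlated at r = 0.87, with 0.90 over the 8 wild-type arrays and 0.67 over the 6 det2 arrays. AT1G52100 correlated at -0.61 with AT5G35940 and at -0.45 with AT1G52070, and at 0.28 and 0.15 within wild type. These values describe arrays that share groups and are no independent points.

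The genes with profiles most like each member were taken by Pearson correlation of log2(signal + 16) over the 14 arrays, among 9750 other tested genes. For AT1G52070 the closest was AT1G52050 at r = 0.98, with 0.97 within wild type and 0.98 within det2, followed by AT1G34510 (0.89), the root-list gene AT3G49960 (0.89), AT5G26260 (0.89) and AT5G35940 (0.87). Reading AT1G52050 array by array gives 447.5 and 313.2 in dark-grown wild type, 58.6 and 137 with BL, 157.7 and 210.7 in dark-grown det2 and 469.9 and 468 in light-grown det2. Both genes were therefore low in the same groups, and whether the probe sets of these neighbouring family genes share signal was not tested. For AT5G35940 the closest were AT5G10130 (0.91), AT4G28830 (0.91), AT4G20230 (0.91), AT1G08230 (0.90) and SCN1 (0.90), the SUPERCENTIPEDE1 gene known for its role in root hair initiation. Within det2 these 5 ranged from -0.066 to 0.87.

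For AT1G52100 the closest were AT1G05170 (0.97), AT1G62660 (0.96), AT1G18980 (0.96), ZW9 (0.96) and AT4G17280 (0.96). Within wild type these correlated at 0.71 to 0.82 and within det2 at -0.12 to 0.37, so the likeness over all arrays lies largely between the genotypes. Of these 5 genes, 4 lie on chromosome 1 with AT1G52100, but of the 50 closest 14 did, beside 26% of all genes compared. For AT1G52070, on the same chromosome, 20 of the 50 closest did. For AT5G35940 4 of the 50 closest lie on its chromosome 5, beside 23.5% of all genes.

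**Figure D4:**
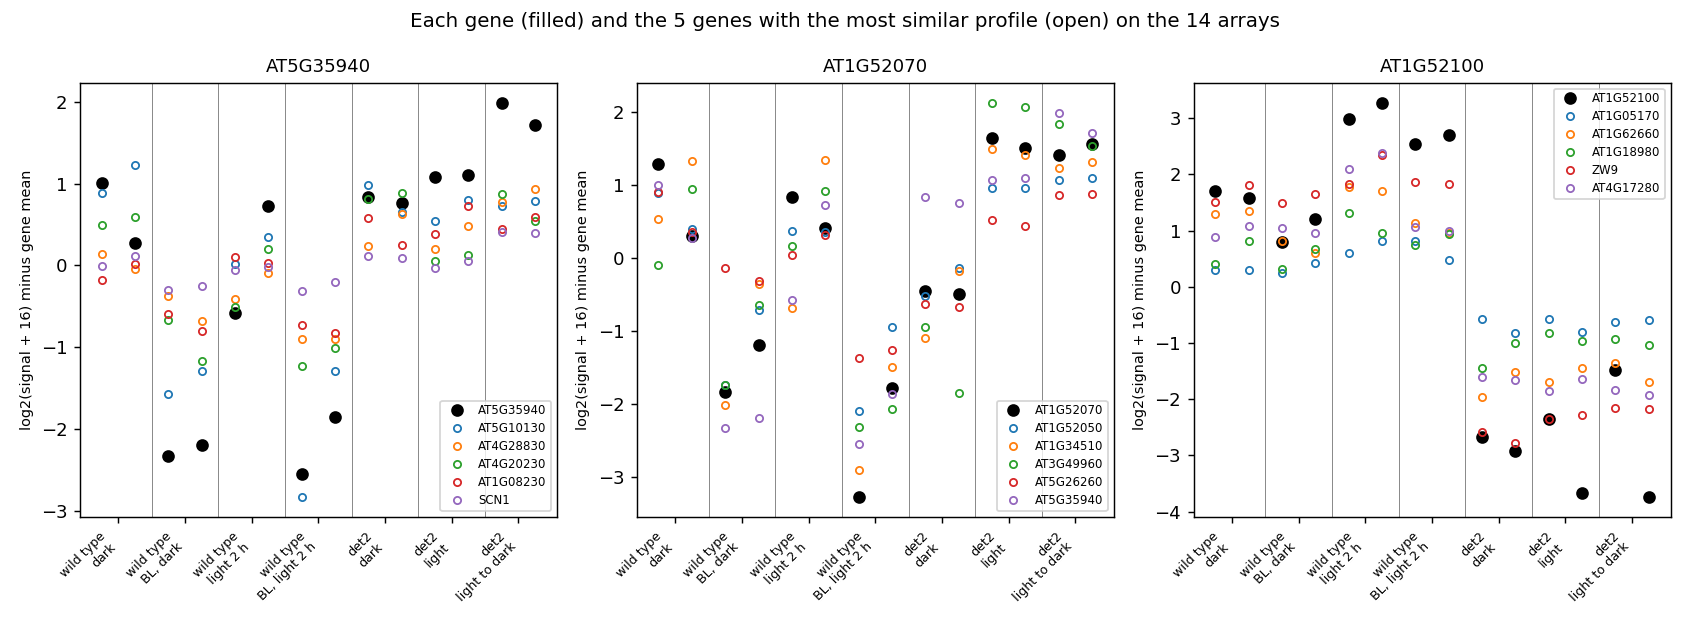
Log2(signal + 16) on each of the 14 arrays, centred on the gene's mean, for each member (filled black) and its 5 closest genes by correlation (open), with grey lines between the 7 groups. The genes closest to AT1G52070 are low in the BL groups, and all but AT5G35940 are also lower in dark-grown det2 than in dark-grown wild type. Those closest to AT1G52100 separate the 8 wild-type arrays from the 6 det2 arrays.

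Of the genes near AT1G52070 on the chromosome, AT1G52060 and AT1G52050 are described above. AT1G52080, between AT1G52070 and AT1G52100, rose by 1.11 ± 0.28 with light in wild type (limma, adjusted p = 0.0122, but 0.0822 and 0.104 without replicate 2 of the dark or of the light arrays), and in det2 against wild type stood at 0.71 ± 0.28 (adjusted p = 0.0591), where AT1G52100 was 21.7-fold lower. With BL it stood at 0.24 ± 0.28 in the dark and -0.29 ± 0.28 in light, and neither passed. AT1G52140, the fourth gene after AT1G52100, fell in dark-grown det2 by 0.85 ± 0.19 (adjusted p = 0.00382) and with BL in light by 0.90 ± 0.19 (adjusted p = 0.0173), and rose by 0.72 ± 0.19 in light-grown against dark-grown det2 (adjusted p = 0.00898). The BL call was lost when the second BL array or the first untreated array was left out (adjusted p = 0.123 and 0.121). The light call was lost without replicate 2 of either det2 group (adjusted p = 0.0836 and 0.0754). AT5G35930, directly before AT5G35940, passed in none of the 7 comparisons, and its value with BL in the dark was 0.23 ± 0.31 (adjusted p = 0.83).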

How the data were processed

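Total RNA of seedlings was hybridised to 1-colour arrays with 22810 probe sets. The authors deposited 1 table of linear intensity values for all 14 arrays, and per the submitters' processing notes MAS5 and limma were used (no version is given there). Every array had a 2% trimmed mean of 500, so scaling preceded deposit. No detection calls were used, and the number of arrays limits the precision.

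Groups came from the sample descriptions. Labels do not say that replicates are separate cultures, so the p-values rest on a spread among arrays that may be technical. Of the probe sets, 64 controls were left out and 4959 with a mean under 50 were removed. The rest were fitted as log2(intensity + 16) with limma 3.58.1 in R 4.3.3, 1 mean per group over 14 arrays with a variance trend, and Benjamini-Hochberg adjustment over 17787 probe sets within each of 7 comparisons at 0.05. Figures used matplotlib 3.10.9.

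Names came from the platform annotation and a reference on assembly TAIR10.1, and 13436 matched 1 locus. The members and all lists were chosen with earlier results of these data known. The rule for named genes takes the members, the 6 other lectin-list genes with the largest change, up to 3 passing genes of each other list, the 5 genes most like each member and named chromosomal neighbours. A list of 15 brassinosteroid genes had 2 named probe sets, EXPA8 and EXO. Protein and promoter sequences were not used here. Alternatives changed the constant, filter, normalization, variance trend, arrays in the fit and replicate block, or left out 1 array.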

Additional observations from a re-analysis of the deposited data

How the results depend on the processing

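Of the recomputed values for tested changes of the members, 134 kept their direction and their side of the threshold, 13 newly passed and 9 changed sign, and AT1G52070 in light-grown against dark-grown det2 passed in all. AT1G52100 with light passed with a constant of 64 (1.46 without BL, 1.58 with BL), with the replicate block and with wild-type arrays alone, with or without that block (1.49 and 1.62 in each), and with BL under quantile normalization (1.66). AT5G35940 after the shift of det2 to darkness (0.76) passed with det2 arrays alone, with or without the replicate block, and with light in BL-treated seedlings it turned to -0.20 under quantile normalization. Leaving out 1 array, where the lone array left is assumed to vary like the other groups, gave, for AT5G35940, -1.22 to 0.085 with light in wild type, -0.29 to 0.40 with light in BL-treated seedlings and -0.21 to 0.52 in det2 against wild type. It gave, for AT1G52070, -0.66 to 0.32 and -1.77 to -0.27 with light without and with BL, and for AT1G52100 -0.87 to 0.44 in light-grown det2 and -0.74 to 1.53 after the shift.

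The count of other lectin-list genes past the threshold ranged, with 1 array left out, from 3 to 7 for BL in the dark, 3 to 6 for BL in light, 3 to 4 for det2 in darkness, 0 to 1 for light in wild type and 1 to 2 for the shift to darkness. With wild-type arrays alone it was 4 for BL in the dark, 3 for BL in light and 0 for light in wild type, and 7, 7 and 2 when the replicate block was added. For light in wild type it was 1 with a constant of 1, with no filter, under quantile normalization and with no variance trend. For the shift it was 5 with det2 arrays and the replicate block. For light-grown against dark-grown det2 it ranged from 8 to 10 over the alternatives that kept all arrays of the compared groups. Leaving out any 1 array of that comparison cost calls, as given above. Same-numbered arrays deviated together in wild type (r from 0.23 to 0.43 over 6 pairs of groups) but not in det2 (-0.033 to 0.016 over 3), and the labels do not say what a number marks, so the fit without the block is the one reported and blocked values stand beside calls of the listed genes that the block over all arrays changes. Low signals limit the folds of the BL and det2 groups.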

Other observations

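The brassinosteroid list holds EXPA8, an expansin gene, and EXO, a brassinosteroid-responsive gene. Of these 2, 0 passed with BL in the dark, beside 1.53% of all probe sets called higher and 1.89% lower. The shares with BL in light were 2.17% and 2.08%. With BL in light EXPA8 rose by 1.03 ± 0.24 (limma, adjusted p = 0.0295), a call kept when the first BL array was left out and lost without any of the other 3 arrays (adjusted p from 0.0896 to 0.222). In dark-grown det2 it fell by 0.82 ± 0.24 (adjusted p = 0.0187), a call lost without replicate 2 of either group (adjusted p = 0.116 and 0.0779). With light in BL-treated seedlings EXO stood at -0.95 ± 0.34 (adjusted p = 0.073, or 0.0462 when blocked by replicate number). In light-grown against dark-grown det2 both fell, EXPA8 by 2.06 ± 0.24 (adjusted p = 3.19e-05) and EXO by 1.73 ± 0.34 (adjusted p = 0.0015), while AT1G52070 rose. Of all probe sets, 17.7% were called lower in this comparison. After the shift of det2 to darkness EXO rose by 2.17 ± 0.34 (adjusted p = 0.0013), from 1592 ± 65.7 to 7229 ± 360 signal units (SD, n = 2). AT5G35970, near AT5G35940 on the chromosome, rose by 2.59 ± 0.23 with light in wild type (adjusted p = 4.41e-06) and fell by 1.58 ± 0.23 after the shift to darkness (adjusted p = 0.000717), where AT5G35940 stood at -0.57 and 0.76.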
